A study of Homo sapiens with 4 samples.

Results

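The genes described here are the ligands and receptors of the classical axon guidance families: the ephrins and their Eph receptors, the semaphorins with the plexins and neuropilins that bind them, the Slits and Robo receptors, and the netrins with DCC and the UNC5 receptors. They were chosen by gene symbol, with the requirement of a protein-coding transcript, which gave 71 of the 58174 genes in the files. The choice of these families was made with earlier results of these data known. RNA-seq of total RNA was made from Daoy cells, an established line from a human medulloblastoma. There were 2 genotypes, EED-knockout and wild type, with 2 libraries each, and no treatment or time was labelled for either. The labels give neither the position of the EED lesion nor whether the replicates are separate clones or cultures, so the spread behind each p-value may be technical.

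Guidance receptors sit on the surface of a cell and read ligands that are secreted or carried by neighbouring cells, turning them into attraction, repulsion or a change in adhesion through small GTPases and the cytoskeleton. Ephrins bind Eph receptor tyrosine kinases at cell contacts, secreted class 3 semaphorins act through neuropilins and plexins while the membrane-bound classes act mainly on plexins, Slits repel cells that carry Robo receptors, and netrin-1 attracts through DCC and repels through UNC5. In the developing cerebellum, from which medulloblastoma arises, members of these families guide migrating granule neuron precursors. EED is a subunit of Polycomb repressive complex 2, which deposits the silencing mark H3K27me3, often at CpG-rich promoters of developmental genes.

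Libraries held between 17836112 and 19106382 estimated counts, so that 3 counts, the floor used for a gene with none, came to 0.157 to 0.168 CPM (counts divided by the scaled library size). EED itself had 340 and 490 counts in EED-knockout libraries 1 and 2, against 626 and 500 in wild type libraries 1 and 2. Its log2 fold change was -0.49 (95% interval -1.12 to 0.13), and edgeR's quasi-likelihood test with Benjamini-Hochberg adjustment did not call it (adjusted p = 0.878). The RNA level does not show whether the protein was lost. Of 11 markers of neural progenitors and Sonic hedgehog medulloblastoma, 10 averaged above 1 TPM (abundance per transcript length, scaled to 1 total per library). VIM led at 3091 to 3432 TPM, NES had only 0.816 to 1.83 TPM, and ATOH1 was at 0 in every library. GLI1 had 5.45 and 4.27 TPM in EED-knockout and 1.75 and 1.29 TPM in wild type, with a log2 fold change of 1.60. For the other tested markers of the list the fold change lay between -0.26 (ZIC2) and 0.46 (NES). The median difference between length and effective length, which follows fragment length, was 277 bases in each EED-knockout library, against 258 and 252 bases in the wild type libraries. Because that difference moved with genotype, values were also computed with a correction for GC content and length, and values that it moved are given beside several of the genes.

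Daoy cells carried a broad set of guidance genes. Averaged over the 4 libraries, 51 of the 71 genes lay above 1 TPM, 24 above 10 TPM and 2 above 100 TPM. The most abundant was NRP2, a neuropilin that serves as co-receptor for class 3 semaphorins, with 212 and 147 TPM in EED-knockout libraries 1 and 2 and 109 and 127 TPM in wild type libraries 1 and 2. EPHB2, a receptor for B-type ephrins, followed with 111 and 159 TPM in EED-knockout and 75.8 and 119 TPM in wild type. EFNA1, a membrane-anchored ligand of EphA receptors, had 104 and 86.7 TPM in EED-knockout and 68.0 and 70.8 TPM in wild type. These 3 were followed by NRP1, EPHA2, PLXNB2, EPHB4, SEMA7A and PLXNA1, all between 40.6 and 58.6 TPM on average, a range within which single libraries of neighbouring genes overlapped.

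At the low end, EPHA6 had 0 counts in every library and DCC, the attractive netrin receptor, had 0 and 1 counts in EED-knockout and 0 and 1 in wild type. Those 2 were the only members with under 3 counts in each library. In all, 62 members passed the filter on low counts and were tested. The other 9 were DCC, EFNA2, EPHA3, EPHA6, EPHA8, NTN3, NTN5, ROBO2 and SEMA5B. EPHA8 was the only member with at least 3 counts in both libraries of 1 genotype and under 3 in both of the other, with 6 and 3 counts in EED-knockout and 1 and 1 in wild type. EFNA2, another ephrin ligand, had 13 and 9 counts in EED-knockout and 3 and 2 in wild type, and was too low for the filter.

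**Figure D1:**
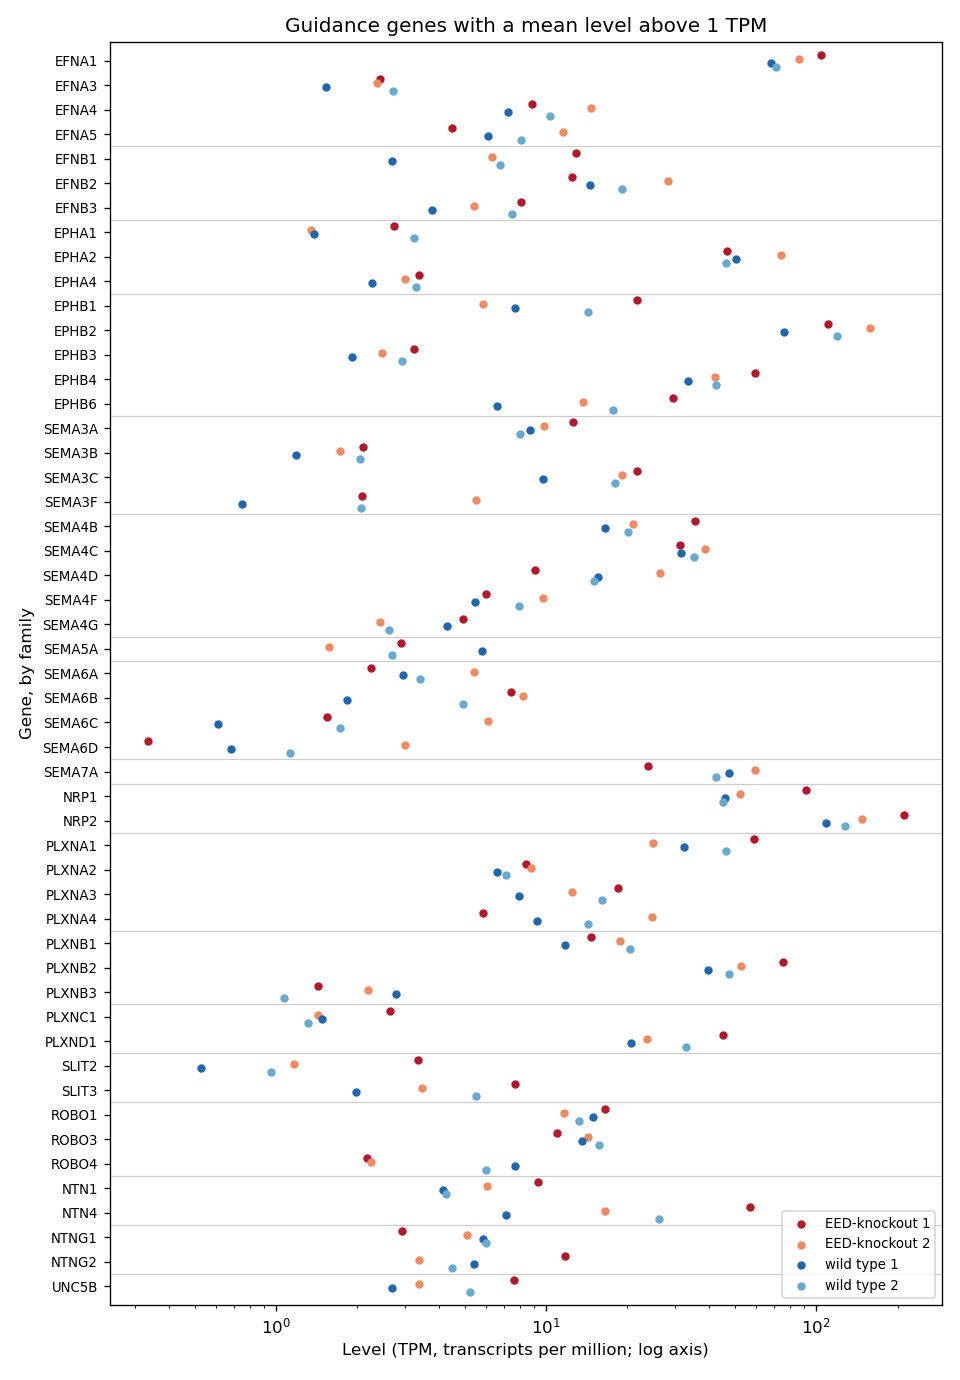
Level of each guidance gene with a mean above 1 TPM in the 4 libraries, by family, on a log axis of TPM; each point is 1 library, in red shades for EED-knockout and blue shades for wild type. NRP2 and EPHB2 lie at the high end, and in many rows the dark blue point of wild type 1 is the leftmost.

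No guidance gene was called between the genotypes by edgeR at an adjusted p of 0.05, where 0 of 18349 genes were called (0.0% in each direction). At an unadjusted p under 0.05 there were 8 members (12.9%; 5.9% of all genes), 6 higher and 2 lower in EED-knockout. The 6 higher members were 9.68% of the 62 tested, beside 2.85% of all genes tested, and the 2 lower were 3.23%, beside 3.05%. DESeq2 on the same genes called 1 member, the Robo receptor ROBO4, among 26 genes called higher (0.142%) and 42 called lower (0.229%). limma-voom and limma-trend called 0 members.

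Most members leaned the same way without passing the test. The log2 fold change was above 0 for 48 of 62 members (77.4%), and below 0 for 14 (22.6%), beside 50.9% above and 49.1% below among all genes, and the median was 0.28, beside 0.01 over all genes. With upper quartile or DESeq2 size factors 48 members were above 0, with length-scaled TPM counts 47, and on log2(TPM + 1) and log2(TPM + 0.1) 50 and 51. On those last 2 scales the share above 0 among all genes was also larger, at 59.8% and 59.5%. In CPM, both EED-knockout libraries exceeded both wild type libraries in 15 members (24.2%; 17.8% of all genes) and were below both in 6 (9.68%; 18.0% of all genes). In TPM, which is per length, 16 members lay above (23.4% of all genes) and 3 below (12.9%). On both scales 8 members lay above and 3 below. In TPM the share of members above, 25.8%, was near the background. The median was 0.16 with the GC content and length correction, under which 45 members were above 0. Of the 8 members at an unadjusted p under 0.05 on counts, 6 had one with that correction (all but NTN1 and SEMA6B). With length-scaled TPM counts 4 did (EPHA10, NTN1, ROBO4 and SEMA6B), and on log2(TPM + 1) and log2(TPM + 0.1) 3 did on each scale (EPHA10, ROBO4 and SEMA6B).

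The lean rested on some libraries more than on others. Wild type 1 held the lowest CPM of the 4 in 34 of 62 members (54.8%; 27.3% of all genes) and EED-knockout 1 the highest in 30 (48.4%; 31.2%), with 23 members showing both. Set against the wild type mean, the median log2 deviation of the members was 0.36 in EED-knockout 1, 0.19 in EED-knockout 2, -0.12 in wild type 1 and 0.12 in wild type 2, so EED-knockout 2 and wild type 2 stood close together. Without wild type 1 the median fold change was 0.15 and 1 member, ROBO4, had an unadjusted p under 0.05, beside 1.75% of genes. Without EED-knockout 1 the median was 0.16, and without wild type 2 it was 0.47. The members above 0 numbered 41 of 62 without EED-knockout 1 (48.8% of all genes), 41 of 63 without EED-knockout 2 (48.5%), 44 of 63 without wild type 1 (52.3%) and 49 of 63 without wild type 2 (52.2%). Leaving out EED-knockout 2 gave 17 members at an unadjusted p under 0.05, beside 10.9% of genes. Among markers of other cell types, the summed level of the fibroblast list (5 of 5 genes above 1 TPM, none at 0) was also lowest in wild type 1. The sum was 1020 and 821 TPM in EED-knockout libraries 1 and 2 and 522 and 962 TPM in wild type libraries 1 and 2. COL1A1 gave most of it, with 380 TPM in wild type 1, while COL1A2 was lowest in EED-knockout 2 (90.5 TPM). The log2 fold changes were 0.32 for COL1A1 and 0.98 for PDGFRA, but -0.09 for COL1A2, -0.75 for DCN and -0.44 for LUM. The epithelial list (2 of 5 above 1 TPM) summed to 648 and 627 TPM in EED-knockout and 505 and 741 TPM in wild type, the glial list (3 of 5) to 9.85 and 7.31 TPM in EED-knockout and 5.93 and 7.24 TPM in wild type, and the blood list (1 of 5, with CD3E at 0) to 37.2 and 28.1 TPM in EED-knockout and 19.1 and 50.1 TPM in wild type. The part of these lists in the lean was not tested. The neuronal list (2 of 6) had 102 and 126 TPM in EED-knockout and 111 and 87.0 TPM in wild type. TUBB3 gave most of it, with 92.1 and 120 TPM in EED-knockout and 104 and 78.3 TPM in wild type. The log2 fold changes were 0.09 for TUBB3, 2.18 for MAP2, 1.21 for RBFOX3, 0.21 for STMN2 and -0.03 for SYP. MAP2 had 0.997 and 0.628 TPM in EED-knockout and 0.279 and 0.242 TPM in wild type. The part of the neuronal list in the lean was not tested either. Single genes gave most of some sums in every library, with CD68 at 36.6 TPM (blood) and KRT18 at 597 TPM (epithelial) in EED-knockout 1. The labels name Daoy cells for every library and no mixture of cell types. In bulk RNA, fewer cells with a marker and less of its RNA per cell cannot be told apart.

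**Figure D2:**
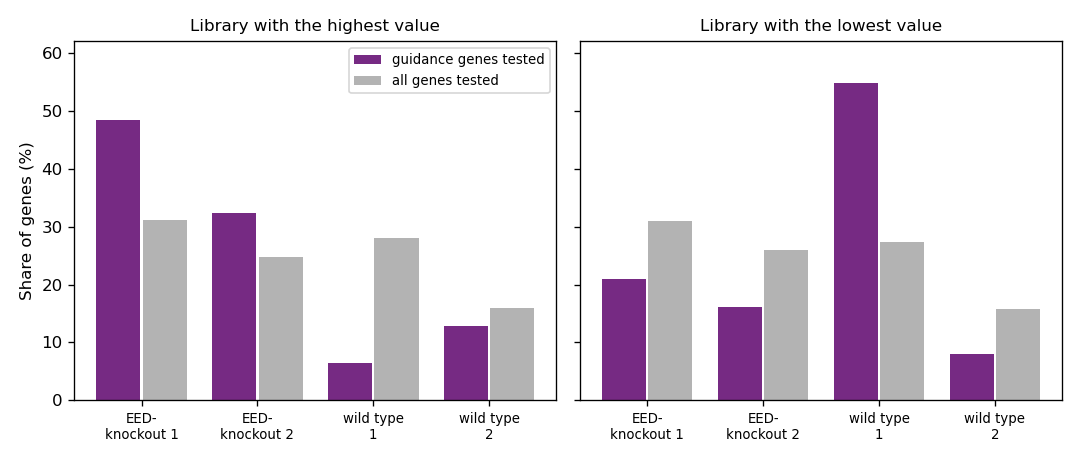
Share of genes (%) for which each library had the highest CPM (left panel) or the lowest (right panel), for the 62 guidance genes tested (purple) and all 18349 genes tested (grey). Wild type 1 was the lowest library for 54.8% of the guidance genes, against 27.3% of all genes.

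**Figure D3:**
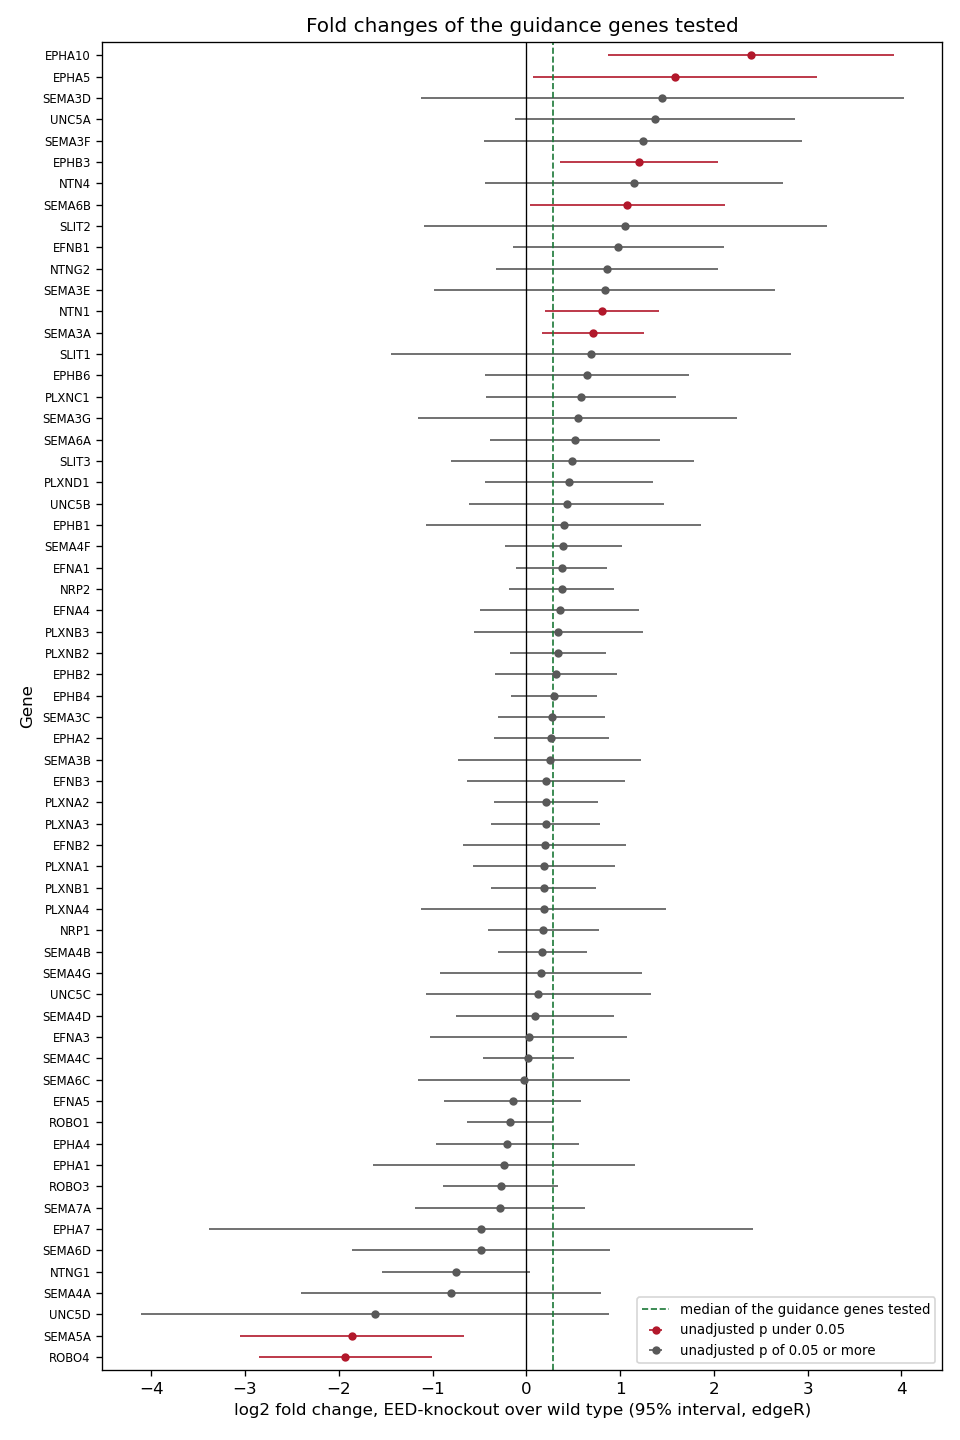
Log2 fold change of each tested guidance gene, EED-knockout over wild type, with its 95% interval from edgeR. The 8 genes at an unadjusted p under 0.05 are red, the median of 0.28 is dashed, and 48 of 62 points lie right of 0.

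Among the Eph receptors, 8 of 11 tested had a fold change above 0 and 3 below (median 0.32), and 3 had an unadjusted p under 0.05, all higher in EED-knockout. EPHA10, an Eph receptor without kinase activity (chr1:37713880-37765133, minus strand, GRCh38), had 41 and 26 counts in EED-knockout libraries 1 and 2 and 4 and 8 in wild type libraries 1 and 2. Both EED-knockout libraries were higher, though every value was below 1 TPM. The log2 fold change was 2.40 (95% interval 0.88 to 3.92; edgeR adjusted p = 0.799). EPHA5, a receptor of A-type ephrins known from the nervous system (chr4:65319563-65670495, minus strand), had 37 and 76 counts in EED-knockout and 10 and 26 in wild type. The genotypes separated in counts but overlapped in TPM, where EED-knockout 1 had 0.471 and wild type 2 had 0.485. Its log2 fold change was 1.59 (0.07 to 3.11; edgeR adjusted p = 0.834), and 1.16 with length-scaled TPM counts.

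EPHB3, a receptor of B-type ephrins (chr3:184561784-184582409, plus strand), had 192 and 143 counts in EED-knockout and 59 and 81 in wild type. Both EED-knockout libraries were higher in counts, but in TPM the values were 3.24 and 2.46 in EED-knockout and 1.91 and 2.93 in wild type, which overlap. The log2 fold change of counts was 1.20 (0.36 to 2.04; edgeR adjusted p = 0.799), but it was 0.15 with length-scaled TPM counts, 0.18 on log2(TPM + 1) and 0.24 on log2(TPM + 0.1). All 5 EphB receptors had a fold change above 0, with a median of 0.40 that stayed above 0 under each scaling, although leaving out either EED-knockout library turned 1 of them. Their summed level was 224 and 223 TPM in EED-knockout and 125 and 196 TPM in wild type, with EPHB2 as the largest part. EPHB2 itself did not separate beyond its spread, with a log2 fold change of 0.32 (-0.33 to 0.97; edgeR adjusted p = 0.911) that was -0.043 without EED-knockout 2 and 0.18 with the GC content and length correction. EPHB4, the receptor best known from veins, had 2448 and 1983 counts in EED-knockout and 1695 and 1768 in wild type, without overlap in counts but with overlap in TPM. The fitted log2 fold change was 0.30 (-0.16 to 0.76; edgeR adjusted p = 0.888), and 0.11 with that correction. The gene overlaps SLC12A9 on the opposite strand, and since no source used here says whether the kit keeps strand, reads of the 2 genes cannot be told apart with certainty. Of the tested members, 9 overlap an expressed gene in this way or on the same strand, EPHA1, EPHB1, PLXNA3, PLXNB3, PLXNC1 and SEMA4G among them.

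The EphA receptors had no common direction, with 3 of 6 above 0 and 3 below. EPHA2, the most abundant of them and a receptor found on many tumour cells, had 2254 and 3522 counts in EED-knockout and 2521 and 2103 in wild type. Its EED-knockout libraries lay on either side of wild type 1, and the log2 fold change of 0.27 (-0.35 to 0.88; edgeR adjusted p = 0.928) was -0.11 without EED-knockout 2 and 0.10 with the GC content and length correction. EPHB1, another ephrin-B receptor, was uneven, with 903 and 189 counts in EED-knockout and 334 and 459 in wild type, so that both extremes were EED-knockout libraries.

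Of the 7 ephrins tested, 6 had a fold change above 0 (median 0.21). EFNA1 had 1631 and 1258 counts in EED-knockout and 1031 and 1103 in wild type, with no overlap in counts or in TPM. Its log2 fold change was 0.38 (-0.11 to 0.86; edgeR adjusted p = 0.878). The 193 tested genes within 5 Mb of EFNA1 had a median of -0.15, opposite in sign, and deviated by a median of -0.37 in EED-knockout 1. EFNB1, a transmembrane ligand of EphB receptors, had 586 and 290 counts in EED-knockout and 128 and 297 in wild type. Its spread came from wild type 1 and EED-knockout 1, while EED-knockout 2 and wild type 2 were nearly level, and the log2 fold change was 0.98 (-0.15 to 2.11; edgeR adjusted p = 0.861). EFNB2, the most abundant B-type ephrin, had 699 and 1561 counts in EED-knockout and 871 and 1031 in wild type, and its EED-knockout libraries lay on both sides of the wild type ones.

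The semaphorins held 3 of the 8 members at an unadjusted p under 0.05, with SEMA5A lower and SEMA6B and SEMA3A higher in EED-knockout. Of 19 tested, 14 had a fold change above 0 and 5 below (median 0.25). SEMA5A, a transmembrane semaphorin with thrombospondin repeats (chr5:9035026-9546075, minus strand), had 182 and 143 counts in EED-knockout and 857 and 277 in wild type. Wild type 1 was far above the other 3 libraries, and in TPM the values of 2.89 and 1.57 in EED-knockout overlapped the 5.78 and 2.69 in wild type. Its log2 fold change was -1.86 (-3.05 to -0.66; edgeR adjusted p = 0.799; DESeq2 adjusted p = 0.0543), and it was -0.83 without wild type 1, -1.05 with length-scaled TPM counts and -0.66 on log2(TPM + 1). SEMA6B, a transmembrane ligand of plexin-A receptors (chr19:4542593-4559808, minus strand), had 363 and 485 counts in EED-knockout and 109 and 277 in wild type. The genotypes did not overlap in counts or in TPM, with wild type 1 the lowest library. The log2 fold change was 1.08 (0.04 to 2.12; edgeR adjusted p = 0.834), 0.56 without wild type 1 and 0.88 with the GC content and length correction.

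All 7 class 3 semaphorins, the secreted ligands of neuropilins and plexins, had a fold change above 0 (median 0.71). The family median stayed above 0 under each scaling and with each library left out, but its size moved. It was 0.38 without EED-knockout 1, 0.58 without EED-knockout 2, 0.32 without wild type 1 and 1.45 without wild type 2. Of the 7 genes, 1 turned without EED-knockout 1 and 1 without wild type 1. SEMA3D, SEMA3E and SEMA3G averaged below 1 TPM. SEMA3A, the repellent that acts through NRP1 (chr7:83955777-84492724, minus strand), had 675 and 530 counts in EED-knockout and 332 and 374 in wild type. Both EED-knockout libraries were higher in counts and in TPM (12.6 and 9.84 TPM in EED-knockout, 8.71 and 7.97 TPM in wild type). Its log2 fold change was 0.71 (0.17 to 1.26; edgeR adjusted p = 0.799), between 0.54 and 0.86 with 1 library left out. It was 0.32 with length-scaled TPM counts, 0.38 on log2(TPM + 1) and 0.41 on log2(TPM + 0.1). SEMA3C, the most abundant of the class, had 938 and 875 counts in EED-knockout and 581 and 863 in wild type, and only wild type 1 stood apart, with a log2 fold change of 0.27 (-0.30 to 0.84; edgeR adjusted p = 0.914) that was 0.01 without it and 0.48 with length-scaled TPM counts. SEMA3D was uneven within both genotypes, with 83 and 9 counts in EED-knockout and 5 and 27 in wild type. SEMA3F, a ligand of NRP2, had 58 and 125 counts in EED-knockout and 14 and 60 in wild type, with wild type 1 low and EED-knockout 2 high (log2 fold change 1.25, -0.45 to 2.94; edgeR adjusted p = 0.881). The summed level of the class was 42.3 and 37.0 TPM in EED-knockout and 20.8 and 31.2 TPM in wild type, higher in both EED-knockout libraries.

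Several other semaphorins differed between libraries of 1 genotype. SEMA7A, a lipid-anchored ligand of plexin-C1 and integrins, had 874 and 2090 counts in EED-knockout and 1812 and 1655 in wild type. EED-knockout 1 was low and EED-knockout 2 high, and the log2 fold change of -0.28 (-1.18 to 0.63; edgeR adjusted p = 0.952) was 0.23 without EED-knockout 1 and -0.43 with the GC content and length correction. The 101 tested genes within 5 Mb of SEMA7A deviated from the wild type mean by a median of -0.41 in EED-knockout 1 and 0.11 in EED-knockout 2. The part of these neighbours in the SEMA7A value was not tested. SEMA4C, a ligand of plexin-B2, was level, with 1065 and 1347 counts in EED-knockout and 1176 and 1112 in wild type and a log2 fold change of 0.02 (-0.46 to 0.51; edgeR adjusted p = 0.994), -0.03 with length-scaled TPM counts and -0.13 with that correction. SEMA6C, a transmembrane semaphorin, was level in counts, with 67 and 63 in EED-knockout and 40 and 87 in wild type, but its TPM values were 1.54 and 6.10 in EED-knockout and 0.607 and 1.72 in wild type. EED-knockout 2 stood apart only per length, and the log2 fold change was -0.02 on counts, -0.19 with the correction and 1.65 with length-scaled TPM counts. SEMA6D had 19 and 55 counts in EED-knockout and 46 and 54 in wild type, with EED-knockout 1 low, and its log2 fold change was -0.49 on counts and 0.81 with length-scaled TPM counts. SEMA4D, a ligand of plexin-B1, had 411 and 854 counts in EED-knockout and 636 and 508 in wild type, so both extremes were EED-knockout libraries.

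**Figure D4:**
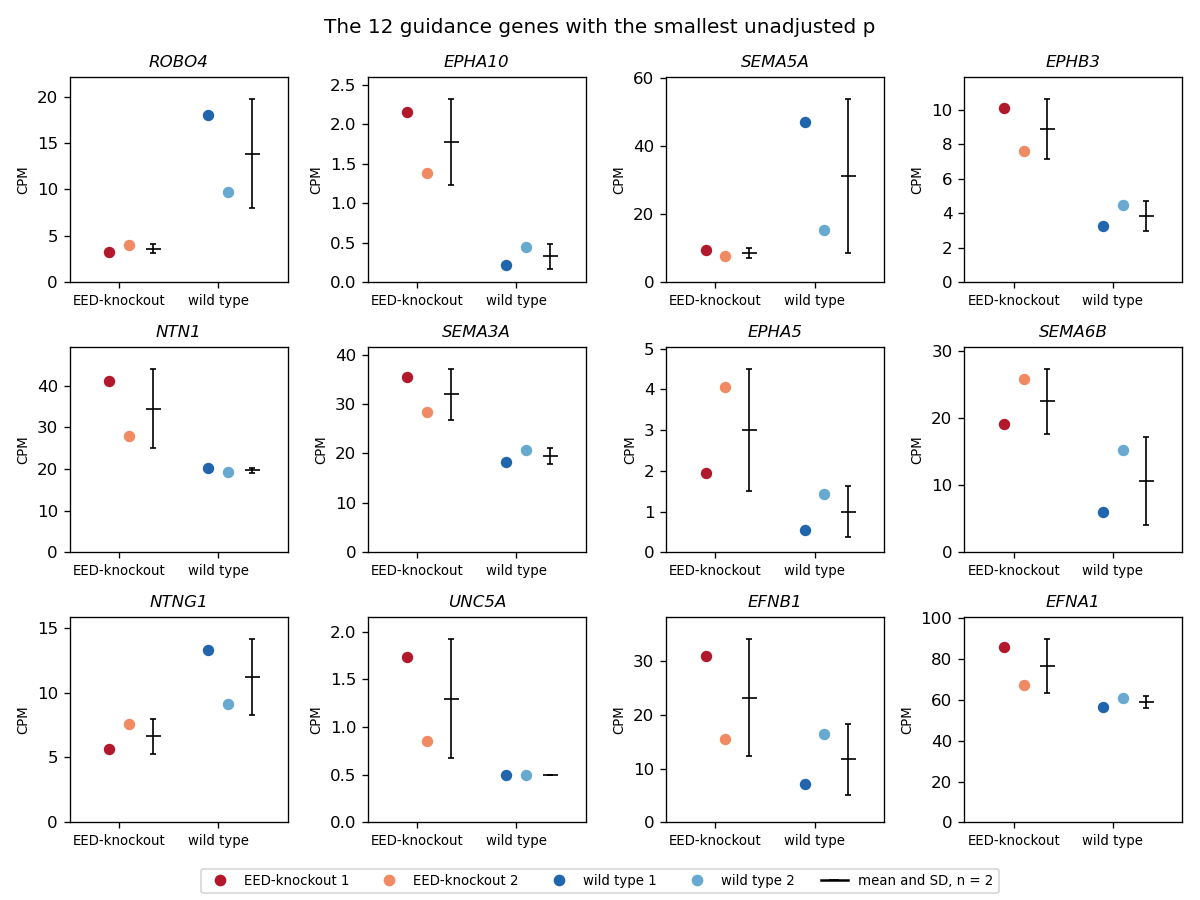
CPM of the 12 guidance genes with the smallest unadjusted edgeR p, with EED-knockout left of wild type in each panel; points are libraries, and bars are the mean and SD (n = 2). ROBO4 and SEMA5A are low in both EED-knockout libraries, and SEMA5A owes most of its wild type mean to wild type 1.

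All 11 semaphorin receptors, 9 plexins and 2 neuropilins, had a fold change above 0 on counts (median 0.21). None had an unadjusted p under 0.05, and 3 turned with length-scaled TPM counts (PLXNA1 to -0.0012, PLXNB1 to -0.028 and PLXNB3 to -0.24). Others turned with a library left out: NRP1 (-0.19) and PLXND1 without EED-knockout 1, and PLXNA2 (-0.067) and PLXNA4 (-1.07) without EED-knockout 2. PLXNA1 turned without EED-knockout 1 as well. PLXNA4 also turned without wild type 1 (-0.058) and with limma-voom (-0.09). NRP2 had 8282 and 6025 counts in EED-knockout and 4653 and 5933 in wild type, with a log2 fold change of 0.38 (-0.18 to 0.93; edgeR adjusted p = 0.881). In TPM both EED-knockout libraries were higher, but in CPM EED-knockout 2 and wild type 2 were about level. NRP1, the other neuropilin, had 3076 and 1913 counts in EED-knockout and 2090 and 2139 in wild type, and only EED-knockout 1 was high in counts (log2 fold change 0.18, -0.41 to 0.77; edgeR adjusted p = 0.954; 0.56 with length-scaled TPM counts). PLXNB2, a receptor of class 4 semaphorins that is needed for granule neuron precursor migration in mice, had 3980 and 2920 counts in EED-knockout and 2464 and 2791 in wild type. Its genotypes did not overlap, and the log2 fold change was 0.33 (-0.18 to 0.85; edgeR adjusted p = 0.888), and 0.12 with the GC content and length correction. The 66 tested genes within 5 Mb of PLXNB2 on chromosome 22 had a median of 0.28, close to its own value. PLXND1, which binds SEMA3E, had 1576 and 749 counts in EED-knockout and 628 and 993 in wild type. PLXNA1, a signalling partner of neuropilins, had 6330 and 3138 counts in EED-knockout and 3820 and 4129 in wild type, so that for both genes only EED-knockout 1 lay above wild type. Without EED-knockout 1 the log2 fold change was -0.16 for PLXND1 and -0.39 for PLXNA1, and with the GC content and length correction it was 0.27 for PLXND1 and -0.02 for PLXNA1. Both lie on the long arm of chromosome 3, and the tested genes within 5 Mb of them deviated from the wild type mean by a median of 0.46 (PLXND1, 83 genes) and 0.38 (PLXNA1, 86 genes) in EED-knockout 1 and by -0.05 in EED-knockout 2 for each. The part of the neighbourhood in these values was not tested. PLXNA4 was highest in EED-knockout 2, with 301 and 1121 counts in EED-knockout and 494 and 714 in wild type.

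ROBO4, a Robo receptor known mainly from vascular endothelium, was the member with the smallest p. It had 62 and 75 counts in EED-knockout and 327 and 176 in wild type, and 2.17 and 2.25 TPM in EED-knockout and 7.69 and 6.0 TPM in wild type. Both EED-knockout libraries were low on each scale, and they lay closer to each other than the wild type libraries did. The log2 fold change was -1.93 with a standard error of 0.39 (-2.85 to -1.01; edgeR adjusted p = 0.664), and DESeq2 called it lower (adjusted p = 0.00925). With 1 library left out it stayed between -2.32 and -1.42, with the value nearest 0 without wild type 1 (edgeR adjusted p = 1.0). The endothelial marker list (4 of 5 genes above 1 TPM on average, none at 0 in every library) summed to 39.3 and 3.09 TPM in EED-knockout and 7.06 and 8.44 TPM in wild type. Most of the sum in EED-knockout 1 was KDR, at 28.7 TPM there, 0.174 TPM in EED-knockout 2 and 0.437 and 0.222 TPM in the wild type libraries. Of the other list members tested, PECAM1, TEK and ESAM had log2 fold changes of -1.04, -0.53 and -0.07, against 5.09 for KDR. TEK had 5.07 and 0.0595 TPM in EED-knockout and 3.15 and 3.82 TPM in wild type. The part of these markers in the ROBO4 value was not tested.

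The neighbouring gene ROBO3, which controls midline crossing of commissural axons, lies on the opposite strand and 2220 bases away from ROBO4 (ROBO4 at chr11:124883691-124898500). It had 187 and 202 counts in EED-knockout and 221 and 231 in wild type. Both EED-knockout libraries were slightly lower, with a log2 fold change of -0.27 (-0.88 to 0.34; edgeR adjusted p = 0.924), and in TPM the genotypes overlapped. The 57 tested genes within 5 Mb of ROBO4 had a median of -0.06. ROBO1, a Slit receptor whose mean of 14.1 TPM was close to the 13.6 TPM of ROBO3, had 1065 and 950 counts in EED-knockout and 1171 and 1006 in wild type, with a log2 fold change of -0.17 (-0.63 to 0.29; edgeR adjusted p = 0.94). All 3 tested Robo receptors were thus below 0 (family median -0.27), also under each scaling and with each library left out. The summed Robo level was 29.7 and 28.3 TPM in EED-knockout and 36.3 and 35.0 TPM in wild type.

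The Slit ligands had fold changes above 0 in 3 of 3 genes (median 0.69) but turned on single libraries. SLIT3, the most abundant Slit, had 563 and 252 counts in EED-knockout and 143 and 412 in wild type, which overlap, and its log2 fold change of 0.49 (-0.81 to 1.79; edgeR adjusted p = 0.937) was -0.18 without EED-knockout 1 and -0.08 without wild type 1. SLIT2 had 170 and 24 counts in EED-knockout and 21 and 68 in wild type. Without EED-knockout 1 the family median was -0.18.

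In the netrin branch, NTN1 was the ligand with an unadjusted p under 0.05. NTN1, the secreted netrin that acts through DCC and UNC5 (chr17:9021542-9244000, plus strand), had 782 and 521 counts in EED-knockout and 366 and 349 in wild type. The genotypes did not overlap, also in TPM (9.30 and 6.04 TPM in EED-knockout, 4.14 and 4.25 TPM in wild type). Its log2 fold change was 0.81 (0.20 to 1.41; edgeR adjusted p = 0.799), between 0.50 and 1.06 with 1 library left out. It was 0.59 with the GC content and length correction, where its unadjusted p was above 0.05. NTN4, a netrin of basement membranes, had the higher level but no separation, with 2002 and 575 counts in EED-knockout and 262 and 849 in wild type. Its libraries alternated between the genotypes, and its log2 fold change of 1.15 had an interval from -0.44 to 2.74 (edgeR adjusted p = 0.881). NTNG1, a lipid-anchored netrin-G of synapses, had 108 and 142 counts in EED-knockout and 241 and 165 in wild type. It was lower in both EED-knockout libraries in counts and in TPM, with a log2 fold change of -0.75 (-1.54 to 0.04; edgeR adjusted p = 0.851). NTNG2 had 589 and 213 counts in EED-knockout and 152 and 270 in wild type, and only EED-knockout 1 was high.

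Among DCC and the UNC5 receptors only UNC5B averaged above 1 TPM. Neogenin (NEO1), a receptor outside these families that also binds netrins, had 65.8 and 77.4 CPM in EED-knockout and 76.3 and 76.9 CPM in wild type. UNC5A, a repulsive netrin receptor, had 33 and 16 counts in EED-knockout and 9 and 9 in wild type. Both EED-knockout libraries were higher in counts and TPM, with a log2 fold change of 1.37 (-0.12 to 2.87; edgeR adjusted p = 0.855). The 109 tested genes within 5 Mb of UNC5A on chromosome 5 had a median of -0.24, opposite in sign. UNC5B had 737 and 325 counts in EED-knockout and 265 and 489 in wild type, which overlap. UNC5D had 34 and 1 counts in EED-knockout and 40 and 63 in wild type, so that only EED-knockout 2 was near 0.

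Across families, summed TPM was higher in both EED-knockout libraries than in both wild type libraries for 8 of 19 families (the A- and B-type ephrins, the EphB receptors, the neuropilins, the plexin-B receptors and semaphorin classes 3, 4 and 6) and lower for 1, the Robo receptors. For the neuropilins the sums were 303 and 199 TPM in EED-knockout and 155 and 173 TPM in wild type. For the A-type ephrins they were 121 and 116 TPM in EED-knockout and 83.1 and 92.0 TPM in wild type. Other margins were narrow. The B-type ephrins had 33.37 and 39.96 TPM in EED-knockout and 21.03 and 33.29 TPM in wild type, so EED-knockout 1 and wild type 2 were level. The plexin-B receptors had 91.42 and 73.42 TPM in EED-knockout and 54.14 and 69.16 TPM in wild type. For semaphorin class 6 the sums of EED-knockout 1 and wild type 2 were also close. These sums carry no test, and no background was computed for sums of genes. Among single genes, 23.4% of all tested lay above in TPM and 12.9% below, so that scale was already uneven. Tested members not described singly had log2 fold changes between -0.80 (SEMA4A, 7 and 6 counts in EED-knockout and 11 and 11 in wild type) and 0.84 (SEMA3E, 29 and 14 counts in EED-knockout and 5 and 18 in wild type), and edgeR called none of them. EFNA1, NRP2 and PLXNB2 gave most of the sum of their families in every library. Libraries of 1 genotype differed from each other too, by a median absolute log2 gap of 0.58 between the EED-knockout libraries and 0.37 between the wild type libraries over the tested members, beside 0.37 for EED-knockout and 0.27 for wild type over all genes tested.

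Transcripts of the same gene did not always differ together. Of 173 transcripts of members tested, 13 (7.51%) had an unadjusted p under 0.05, beside 4.64% of all 56858 transcripts, and edgeR called 0 after adjustment. For ROBO4, the transcript ROBO4-001 had 29.2 and 24.7 counts in EED-knockout and 228 and 110 in wild type, with a log2 fold change of -2.70 (edgeR adjusted p = 0.823). The transcript ROBO4-003 had 23.8 and 40.9 counts in EED-knockout and 68.1 and 44.9 in wild type, so the difference in the gene total lay mainly in ROBO4-001. For SEMA3A, the transcript SEMA3A-001 had 434 and 365 counts in EED-knockout and 171 and 234 in wild type, while SEMA3A-008 had 241 and 164 in EED-knockout and 159 and 138 in wild type.

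Among tested transcripts of the members named by rule, EPHA5-201 and NTN4-002 had counts in both EED-knockout libraries and none in wild type. Only this direction was searched, and the share of all tested transcripts with such counts was not computed. EPHA5-201 had 22.0 and 39.5 counts in EED-knockout and 0 in both wild type libraries to the nearest whole count, at least 10.2-fold higher in EED-knockout against the floor of 3 counts per library (edgeR adjusted p = 0.823). NTN4-002 had 30.4 and 43.0 counts in EED-knockout and 0 in both wild type libraries (edgeR adjusted p = 0.823). Its EED-knockout mean was 12.2 times the same mean floor. These are ratios of means to a floor for counting error, not lower bounds. The main transcript of NTN4, NTN4-001, had 1883 and 530 counts in EED-knockout and 170 and 813 in wild type, so NTN4-002 was a small part of the gene total. A value of 0 for a transcript is the outcome of kallisto's division of fragments among similar transcripts and does not show that the transcript was absent.

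**Figure D5:**
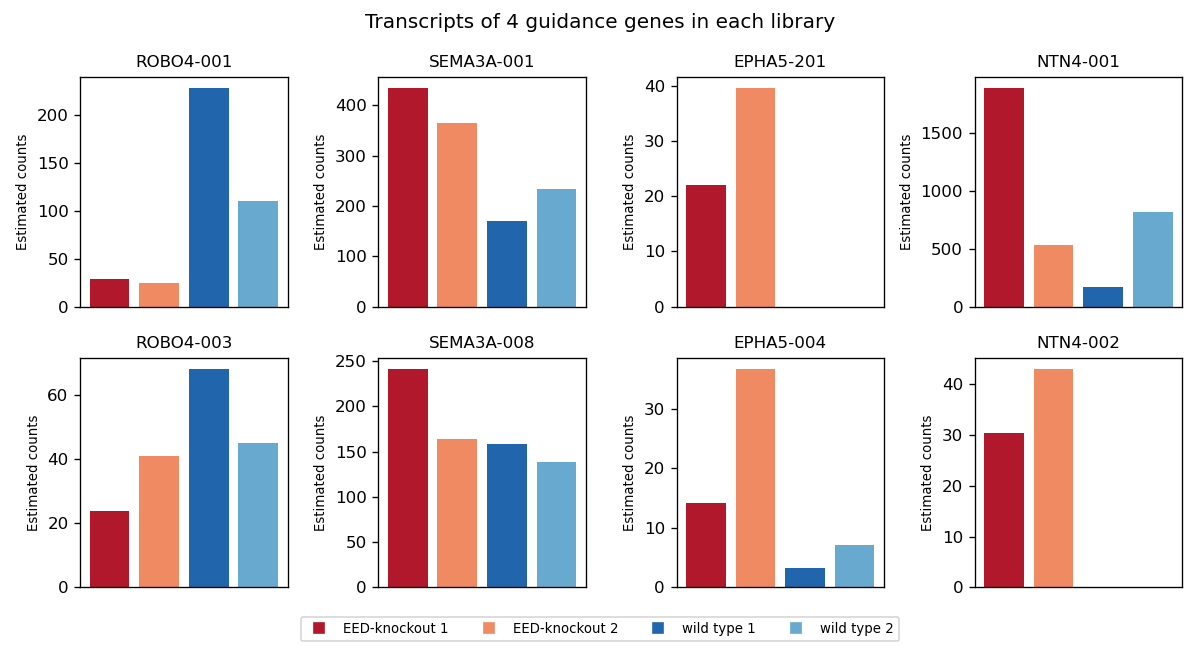
Estimated counts of 2 transcripts each of ROBO4, SEMA3A, EPHA5 and NTN4 in the 4 libraries, with EED-knockout left of wild type; bars are single libraries and start at 0. ROBO4-001 has 228 and 110 counts in wild type, and EPHA5-201 and NTN4-002 have counts in EED-knockout only.

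Promoters of the guidance genes are shown because Polycomb repressive complex 2 is known to favour CpG-rich promoters. RefSeq promoter windows on GRCh38.p14, from 250 bases before to 50 bases after a start, were found for 60 of the 71 genes. The members' windows held a median of 21 CpG in 300 bases with an observed-to-expected ratio of 0.71, beside 21 CpG and 0.74 in the windows of 14563 protein-coding genes, of which 98.1% held at least 1 CpG. Where the window with the most CpG was taken for each gene, the median was 28 CpG over the members and 25 over all protein-coding genes. Over all windows, members averaging above 1 TPM had a median of 24 CpG (66 windows of 43 genes). Members at or below 1 TPM had 17 (28 windows of 17 genes). With the window of most CpG for each gene, these medians were 30 and 24 CpG. Windows are given for the 4 genes among the 8 at an unadjusted p under 0.05 that have an entry, with each CpG in capitals, 5′ to 3′ on the gene's strand. Strands are plus for EPHB3 and minus for the others. ROBO4's window is chr11:124897816-124898115 (11 CpG, ratio 0.48), SEMA5A's is chr5:9546026-9546325 (39 CpG, ratio 0.82), EPHB3's is chr3:184561535-184561834 (26 CpG, ratio 0.73) and EPHA5's is chr4:65669439-65669738 (27 CpG, ratio 0.70). EPHA5 has 2 windows in the RefSeq table, and the one with more CpG is shown.
ROBO4: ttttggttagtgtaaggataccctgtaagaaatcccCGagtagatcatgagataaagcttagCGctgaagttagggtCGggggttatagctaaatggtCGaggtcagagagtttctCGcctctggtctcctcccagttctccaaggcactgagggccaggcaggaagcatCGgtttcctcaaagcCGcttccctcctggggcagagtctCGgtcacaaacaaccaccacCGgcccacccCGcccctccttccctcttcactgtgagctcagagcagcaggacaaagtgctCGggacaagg
SEMA5A: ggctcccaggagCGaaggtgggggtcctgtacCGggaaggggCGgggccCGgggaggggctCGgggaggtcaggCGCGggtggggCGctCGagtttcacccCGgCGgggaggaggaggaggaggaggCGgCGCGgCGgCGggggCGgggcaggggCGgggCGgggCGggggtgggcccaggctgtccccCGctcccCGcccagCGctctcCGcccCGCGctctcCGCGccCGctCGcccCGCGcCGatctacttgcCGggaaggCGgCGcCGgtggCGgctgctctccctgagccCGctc
EPHB3: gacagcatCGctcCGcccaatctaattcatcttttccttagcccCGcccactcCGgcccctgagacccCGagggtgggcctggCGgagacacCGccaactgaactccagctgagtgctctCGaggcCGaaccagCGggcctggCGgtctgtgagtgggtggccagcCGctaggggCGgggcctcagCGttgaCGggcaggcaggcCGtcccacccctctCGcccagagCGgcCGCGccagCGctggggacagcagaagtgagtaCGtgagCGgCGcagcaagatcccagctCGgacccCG
EPHA5: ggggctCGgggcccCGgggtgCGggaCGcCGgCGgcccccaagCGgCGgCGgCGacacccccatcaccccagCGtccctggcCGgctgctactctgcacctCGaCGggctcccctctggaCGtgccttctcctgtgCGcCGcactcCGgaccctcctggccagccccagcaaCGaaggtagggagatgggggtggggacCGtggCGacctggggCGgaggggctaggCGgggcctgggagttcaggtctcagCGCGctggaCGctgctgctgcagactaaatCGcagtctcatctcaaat
Of the 4 windows, ROBO4 had the fewest CpG and SEMA5A the most, and both genes had lower counts in EED-knockout. EPHB3 and EPHA5, with higher counts in EED-knockout, lay between them. CpG content is a description of the sequence and says nothing of binding in these cells.

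Genes of the pathway outside these families were read from a list of 85 other cues, co-receptors, signalling proteins, cytoskeletal effectors and processing enzymes. Of 79 tested, 46 had a fold change above 0 and 33 below, with a median of 0.11. edgeR called 0 of them, 10 had an unadjusted p under 0.05, all higher in EED-knockout (2.85% of all genes were higher at that p), and DESeq2 called 1. The other cues and co-receptors leaned furthest, with 15 of 20 above 0 and a median of 0.58, while 35 receptor-near signalling genes had a median of 0.06 and 19 cytoskeletal effectors 0.04. LINGO1, a co-receptor of the Nogo receptor complex, was the gene DESeq2 called (adjusted p = 0.0103), with 6.06 and 5.24 CPM in EED-knockout and 1.21 and 0.995 CPM in wild type and a log2 fold change of 2.35 (edgeR adjusted p = 0.491). RGMA, a repulsive cue read by neogenin, had 4.74 and 2.94 CPM in EED-knockout and 0.771 and 1.22 CPM in wild type. GPC1, a heparan sulfate proteoglycan that binds Slits, had 70.8 and 95.3 CPM in EED-knockout and 35.1 and 52.8 CPM in wild type. LIMK2, a kinase that inactivates cofilin, had 44.8 and 43.3 CPM in EED-knockout and 26.8 and 31.9 CPM in wild type. All 4 genes had both EED-knockout values above both wild type values, and of these only LINGO1 was called, by DESeq2. They were picked for the smallest edgeR p of the list, so such a separation largely follows from the choice. In CPM, 20 of the 79 genes lay above in this way and 8 below, beside 17.8% and 18.0% of all genes.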

How the data were processed

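RNA-seq libraries of total RNA from EED-knockout and wild type Daoy cells were grouped by the genotype in the labels, with 2 libraries each. The deposited estimated counts and TPM values per transcript came from kallisto 0.43.1 with hg38, per the submitters' processing notes, and the file headers name the columns. No source used here gives the GENCODE release or kallisto's settings. kallisto divides fragments among similar transcripts by a model, so members of gene families are less certain.

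For each gene, estimated counts were summed over its transcripts and rounded, and TPM was summed likewise. Fold changes and p-values came from edgeR 4.0.16 in R 4.3.3 (quasi-likelihood F test, TMM factors, filterByExpr with a minimum count of 10 and minimum total of 15, no covariate, Benjamini-Hochberg adjustment over 18349 genes, threshold 0.05, two-sided), with the members read out of the fit of all genes. CPM was scaled with TMM factors, log2 CPM used a prior count of 2, intervals are 95% intervals of the fit, and the floor of 3 counts covers counting error only. DESeq2 1.42.0 ran on the same genes, and limma 3.58.1 gave voom and trend fits. Transcripts were tested likewise. Positions came from GENCODE 29 on GRCh38.

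The members, the pathway list and the marker lists (Daoy, fibroblast, endothelial, epithelial, blood, neuron and glia) were chosen with earlier results of these data known. Members described with their values were those called by edgeR or DESeq2, the 12 with the smallest unadjusted edgeR p, the most abundant of each family and those detected in 1 genotype only. EFNA2, EPHB1, EPHB4, NRP1, PLXNA4, ROBO3, SLIT2, UNC5D and several semaphorins were added after their values were seen, as examples of uneven or neighbouring genes. Up to 4 pathway genes with the smallest p were named. Alternatives were other size factors, filters, tests and units, a replicate block, and each library left out, where the lone library is taken to vary as much as the other genotype's. Neighbouring genes within 5 Mb, a GC content and length correction (lowess span 0.3), a crossed replicate block and leave-one-out fits on the same genes were added after seeing the data.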

Additional observations from a re-analysis of the deposited data

How the results depend on the processing

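edgeR called 0 members and 0 genes under other size factors, filters, units and limma, while DESeq2 called 68 genes, 1 member and 1 pathway gene. With a library left out, 0 to 23 genes and 0 members were called. On the genes of the full fit, a choice made after seeing the data, these were 92 genes and 1 member (UNC5D) without EED-knockout 1, 96 without EED-knockout 2, 0 without wild type 1 and 4 without wild type 2, with 2 and 1 pathway genes for the EED-knockout libraries. Members at an unadjusted p under 0.05 numbered 5 on log2(TPM + 1) (5.98% of all genes), 5 on log2(TPM + 0.1) (5.74%), and 1 to 17 with a library left out. On the genes of the full fit they were, in the same order, 16, 26, 1 and 11, beside 9.59%, 14.9%, 1.63% and 5.4% of all genes. The median then ran from 0.15 to 0.47 (0.14 to 0.45). With the replicate block 0 members were called, 9 had an unadjusted p under 0.05 (4.19% of all genes) and the median was 0.27. Deviations of same-numbered libraries correlated at -0.14, and they share only a number. The crossed pairing, added after seeing the data, called 0 and gave 13 at an unadjusted p under 0.05 (8.76% of all genes). Directions turned in 30 of 62 members with some library left out: 15 without EED-knockout 1, 12 without EED-knockout 2, 5 without wild type 1 and 6 without wild type 2. Among members named by the rule these, given as the range and then the turned value on the genes of the full fit, were EFNB2 (-0.51 to 0.67; -0.51), EPHA2 (-0.11 to 0.56; -0.10), EPHB2 (-0.043 to 0.60; -0.041), NTNG2 (-0.031 to 1.41; -0.027), PLXNA1 (-0.39 to 0.60; -0.38), PLXND1 (-0.16 to 0.89; -0.15), SEMA4C (-0.17 to 0.19; -0.17 and -0.016), SEMA7A (-1.06 to 0.23; 0.23), SLIT3 (-0.18 to 1.44; -0.18 and -0.078) and UNC5B (-0.26 to 0.94; -0.25). Among those added later, NRP1 (-0.19), EPHB1 (-1.11), SLIT2 (-0.93), SEMA3D (-0.87) and SEMA6D (0.093) turned without EED-knockout 1, PLXNA4 (-1.07) and SEMA4D (-0.55) without EED-knockout 2, PLXNA4 (-0.058) without wild type 1, SEMA4D (-0.068) without wild type 2, and SEMA6C (0.0074 and 0.64) without EED-knockout 2 and without wild type 2. PLXNA1 was -0.0012 with length-scaled TPM counts, -0.016 on log2(TPM + 1), -0.019 on log2(TPM + 0.1) and -0.024 with the GC content and length correction. SEMA4C was -0.032 with length-scaled TPM counts, -0.18 with protein-coding transcripts only and -0.13 with that correction. The cause was not tested. With 2 libraries a genotype, members below the filter could not be tested.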
